A study of Sus scrofa with 3 samples.

Results

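A group of 57 protein-coding genes was at a higher level in the visceral fat of both castrated groups of pigs than in that of intact pigs. The members were chosen by a rule on measured values. A gene of type mRNA had to reach at least 20 UQRPKM in the castrated (CM) and in the castrated, testosterone-treated (CMT) library, and at least 2 times its value in the intact (IM) library in each of them. UQRPKM is a read count per kilobase of gene that is scaled to the library's upper quartile of gene counts, not to its total. The rule took 57 of the 22826 mRNA genes, among 34570 genes of all types. All ratios to IM below were used by the rule and are therefore descriptions.

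The tissue was retroperitoneal fat of male Wuzhishan miniature pigs, a small Chinese breed, that were less than a year old at the start. All of them ate a high-fat, high-cholesterol diet. IM pigs were intact and underwent a sham incision, CM pigs were castrated, and CMT pigs were castrated and received weekly injections of testosterone propionate. RNA of between 4 and 6 pigs per group was mixed, by the sample labels, and the 3 pools were sequenced as 1 library each. No difference therefore has a replicate check within these libraries, and no p-value is given. Differences between groups cannot be told apart in them from differences between single pigs of a pool.

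Testosterone from the testis acts through the androgen receptor, and its loss in males is known to favour the growth of visceral fat. Such fat holds adipocytes together with macrophages and other leukocytes, vessels, fibroblasts and progenitors, and its surface can carry mesothelium, a simple epithelium that expresses keratins and uroplakins. Complement C3 and factor B, also members, are made in adipose tissue as well as in liver, and fatty acid-binding proteins carry lipids inside the cell.

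The libraries held 16611931, 15561124 and 15106608 reads on genes in IM, CM and CMT, as recovered from the UQRPKM values. The tissue label was met by its markers, with 8 of 8 adipocyte markers measured, from PPARG at 1454 to ADIPOQ at 74928 UQRPKM in IM. Liver and muscle transcripts stood apart in 1 library each. The sum over 15 liver markers was 2562, 9816 and 1739 UQRPKM in IM, CM and CMT, and ALB alone was 2.61, 2910 and 4.00 UQRPKM. APOA1 made up nearly all of the sum in IM and CMT, with 2539, 2339 and 1714 UQRPKM. The sum over 13 skeletal muscle markers was 85.8, 74.7 and 6205 UQRPKM. The source of these transcripts was not tested. In a bulk tissue, fewer cells of a type and less RNA per cell cannot be told apart.

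Of the 9881 mRNA genes with at least 20 UQRPKM in CM and CMT, 1.14% were at least 2 times IM in CM, 1.25% were so in CMT, and 0.577% were so in both, which are the members. The same rule with the low library exchanged gave 59 genes low only in CM (0.593% of 9951) and 70 genes low only in CMT (0.705% of 9933). The number of members was therefore close to the number of genes low in either other library alone.

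The members covered a wide range of levels. Their values ran from 0 to 5087 UQRPKM in IM with a median of 16.4, from 21.3 to 11691 in CM with a median of 59.3, and from 20.3 to 11764 in CMT with a median of 58.2. In both castrated libraries 19 members had at least 100 UQRPKM and 22 had less than 50. The smaller of the ratios to IM was between 2 and 3 for 35 members, between 3 and 5 for 11, and 5 or more for 11. The median log2 ratio was 1.53 for CM versus IM and 1.65 for CMT versus IM.

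**Figure D1:**
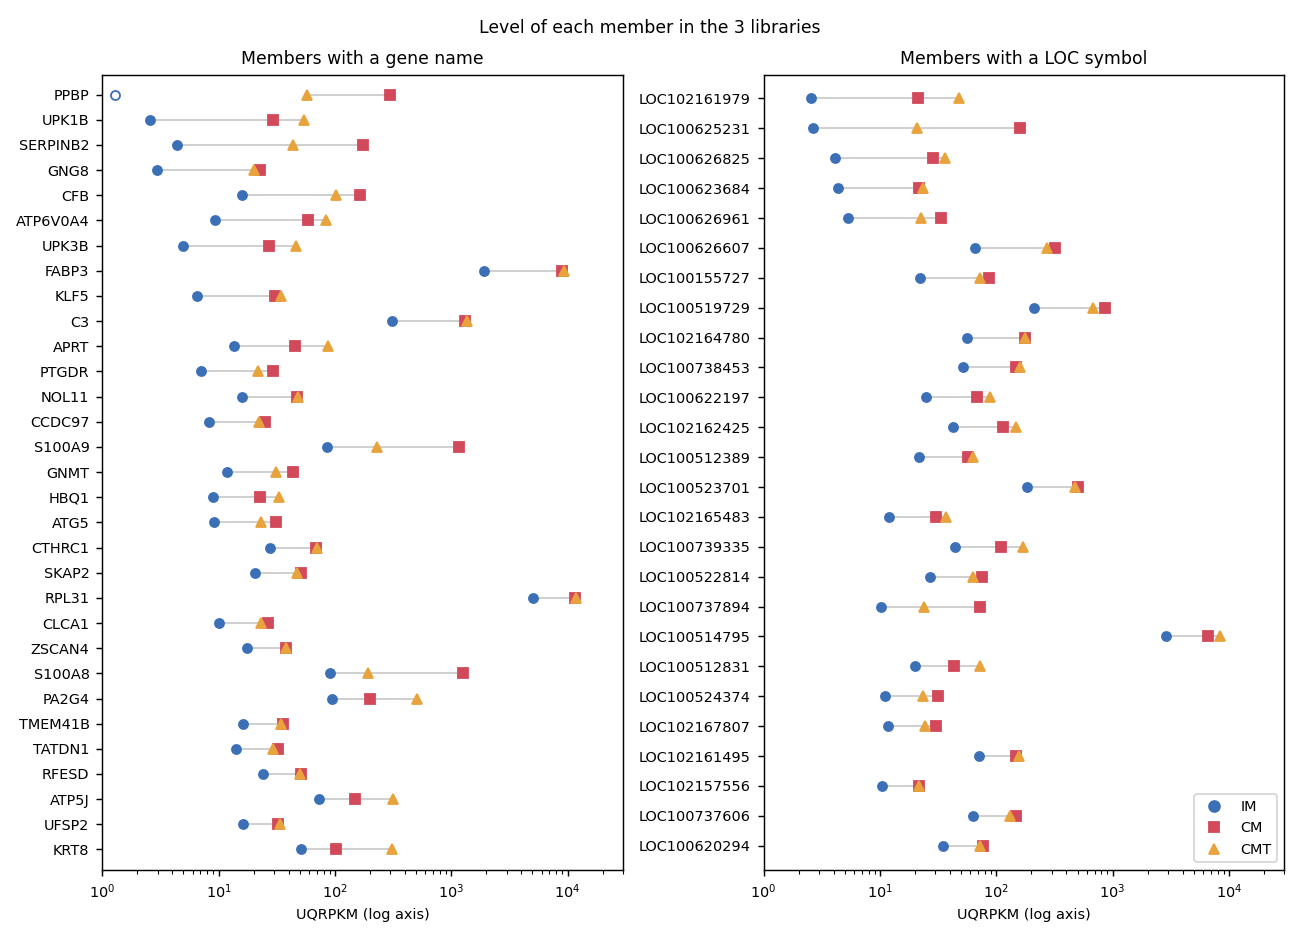
Level in UQRPKM, on a log axis, of each of the 57 members in the IM (circles), CM (squares) and CMT (triangles) libraries, with named genes on the left, genes with a LOC symbol on the right, and 1 pooled library per group. PPBP had 0 reads in IM and is drawn as an open circle at the left edge. The IM value is the lowest for every member, as the rule requires, while the order of CM and CMT varies from gene to gene.

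The members rested on fewer reads than the 9881 mRNA genes with at least 20 UQRPKM in CM and CMT. Their median number of reads was 27, 94 and 99 in IM, CM and CMT, against 436, 402 and 407 for these genes. The 9881 genes include the members and were not matched to them in level. The rule itself keeps IM low, so the IM part of this contrast is not a result. In IM 12 members had fewer than 10 reads. Each interval below is an exact Clopper-Pearson 95% interval on the reads. The intervals cover counting error only, since amplified reads do not each stand for a molecule of their own. The members were chosen on these same reads, so intervals of their ratios to IM are no independent check. For 56 members the lower limit of both ratios to IM was above 1. The exception was LOC100737894, whose log2 ratio of CMT to IM was 1.22 with an interval of -0.14 to 2.75. For 25 members both lower limits were 2 or more.

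The genes nearest to the fold threshold on the inner side were KRT8 with a smaller ratio of 2.001, UFSP2 with 2.001 and ATP5J with 2.01. Just outside were LOC100737730 with 1.99, LOC100152327 with 1.96 and LOC102163853 with 1.95. At the level threshold, GNG8 with 20.3 UQRPKM, LOC100625231 with 21.0 and LOC102161979 with 21.3 were just inside. LOC100737050 with 19.6 UQRPKM, KERA with 19.3 and LOC102162159 with 18.9 were just outside.

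**Figure D2:**
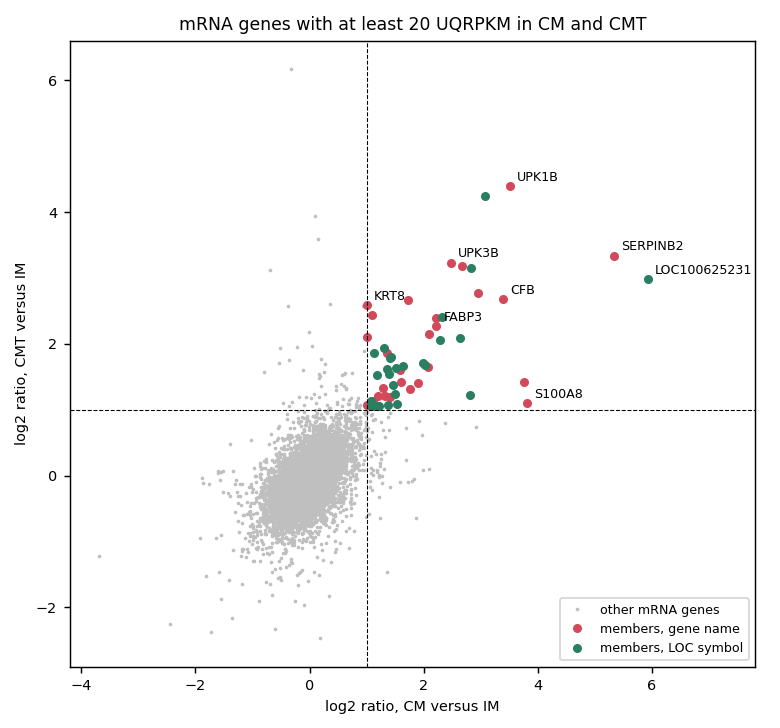
Log2 ratio of CM to IM (horizontal) and of CMT to IM (vertical) for mRNA genes with at least 20 UQRPKM in CM and CMT, with members in colour, other genes in grey, and dashed lines at a ratio of 2, a log2 ratio of 1. The 56 members above 0 in IM fill the upper right corner that the rule sets, PPBP is left out because it was 0 in IM, and both axes share the IM library, so the slope of the cloud is not a result.

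Genes of surface epithelium made up 3 of the members. UPK1B, a tetraspanin of the uroplakin family, had 2.58, 29.4 and 54.2 UQRPKM in IM, CM and CMT. UPK3B, a uroplakin found in mesothelium, was 4.93, 27.4 and 46.4 UQRPKM. KRT8, a keratin of simple epithelia, was 51.2, 102 and 307 UQRPKM. All of them were lowest in IM and highest in CMT. The log2 ratios of CMT to IM were 4.39 (3.31 to 5.73) for UPK1B, 3.23 (2.77 to 3.74) for UPK3B and 2.58 (2.34 to 2.83) for KRT8. Of the other uroplakins, UPK3A was 8.18, 9.25 and 7.71 UQRPKM, and UPK1A and UPK2, which belong to bladder epithelium, were below 2 UQRPKM in every library.

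The rest of a list of 22 mesothelial markers, of which 18 are in the table, was read beside these members. Of the 13 measured at 1 UQRPKM or more in all libraries, 7 exceeded IM by 1.5-fold or more in CM and 1 was lower to that extent, against 7.94% and 10.1% of all 13858 mRNA genes measured. In CMT versus IM 10 were higher and 2 were lower, against 8.42% and 11.6%. In CMT versus CM 7 were higher and 1 was lower, against 9.19% and 9.68%. The list's median log2 ratio was 0.64 for CM and 1.19 for CMT, beside -0.06 and -0.08 over all measured genes. The list includes 3 members, and it was chosen with earlier results of these libraries known.

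Mesothelin (MSLN), a surface glycoprotein that defines mesothelium, was 6.47, 15.4 and 59.5 UQRPKM in IM, CM and CMT. PRG4, the lubricant proteoglycan of serous and joint surfaces, was 1.63, 13.1 and 37.1 UQRPKM. WT1, a transcription factor of mesothelium, was 29.5, 33.1 and 67.3 UQRPKM. These non-members missed the level or the fold in CM but shared the order of UPK1B, UPK3B and KRT8. Other markers did not share it. KRT18, the usual partner of KRT8 in filaments, was 28.7, 26.7 and 14.4 UQRPKM, and ALDH1A2, a retinoic acid-forming enzyme, was 488, 267 and 286 UQRPKM. CALB2 was 0.919 UQRPKM in IM and 0 elsewhere, and LRRN4, RSPO1 and CDH1 were listed at 0 in all libraries. The sum over the list was 11085, 10761 and 10581 UQRPKM, nearly all of it from SLPI, a secreted protease inhibitor with 9887, 9483 and 8708 UQRPKM. How much mesothelium each pooled sample held was not tested.

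**Figure D3:**
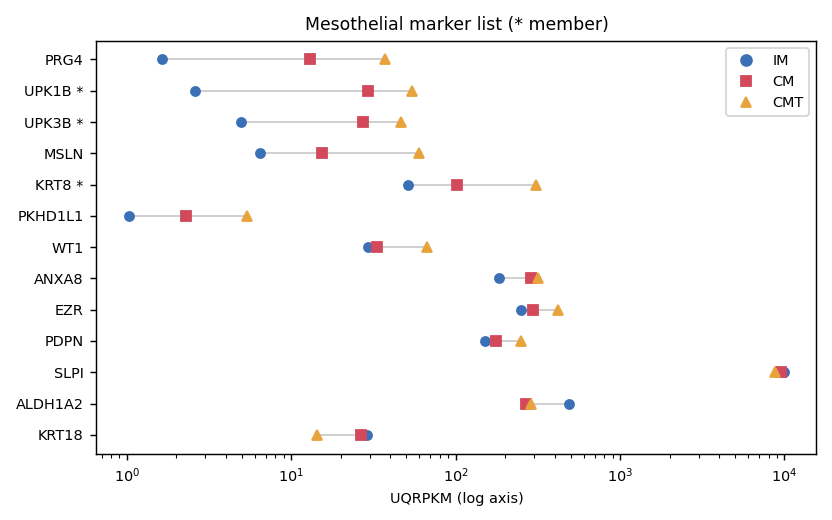
Level in UQRPKM, on a log axis, of the 13 measured mesothelial markers in the IM (circles), CM (squares) and CMT (triangles) libraries, 1 pooled library each, with the members UPK1B, UPK3B and KRT8 marked by a star. PRG4, UPK1B, UPK3B, MSLN and KRT8 step up from IM through CM to CMT, while SLPI, ALDH1A2 and KRT18 are highest in IM.

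The members included a pair of complement genes. C3, the central component on which all complement pathways meet, had 308, 1322 and 1365 UQRPKM in IM, CM and CMT, from 1277, 5220 and 5543 reads. CFB, the serine protease of the alternative pathway, was 15.9, 166 and 102 UQRPKM. C3 was thus 4.29-fold and 4.43-fold higher than in IM, with a CMT to CM log2 ratio of 0.05 (-0.01 to 0.10). CFB was 10.4-fold and 6.4-fold higher, and its CMT value was below its CM value by a log2 ratio of -0.71 (-0.90 to -0.52).

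Of the 16 measured genes of a list of 27 complement genes, CM exceeded IM by 1.5-fold or more in 5 and was lower in 0, and CMT was higher in 3 and lower in 0. The shares over all measured genes given above, 7.94% higher and 10.1% lower in CM and 8.42% and 11.6% in CMT, are the background of this and the later list counts. The list's medians were 0.15 and 0.30 on the log2 scale. The other genes past 1.5-fold in CM were CFI with 40.3, 67.6 and 48.7 UQRPKM, C5 with 1.43, 6.14 and 2.12, and the membrane inhibitor CD59 with 1766, 2706 and 1866. C1QA and C1QC, subunits of C1q made by macrophages, were highest in IM, at 2833 and 3222 UQRPKM, whereas the third subunit C1QB was lowest there, with 763, 871 and 896 UQRPKM. C6, C8A and C8B were above 0 in CM alone, where the liver transcripts were also found. Of the 15 liver markers, 6 were at 0 in IM, 0 in CM and 8 in CMT. Their part in the levels of C3 and CFB was not tested.

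The members also included inflammatory genes whose level in CM was far above that in CMT. S100A8, a calcium-binding alarmin of neutrophils and monocytes, had 90.4, 1272 and 193 UQRPKM in IM, CM and CMT. S100A9, which forms the heterodimer calprotectin with S100A8, was 85.6, 1157 and 229 UQRPKM. SERPINB2, an inhibitor of plasminogen activators made by monocytes and epithelia, was 4.36, 176 and 44.1 UQRPKM. Each of them was at its highest in CM and came closer to IM in CMT. PPBP, the precursor of a platelet chemokine, had 0, 129 and 26 reads, that is 0, 297 and 58.2 UQRPKM. Against a floor of 3 reads in IM, PPBP was at least 45.1-fold higher in CM and at least 8.84-fold higher in CMT. The lower 95% counting limits from its 0 reads were 36.2-fold and 6.69-fold.

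The CMT to CM log2 ratios of these genes were -2.72 (-3.02 to -2.42) for S100A8, -2.35 (-3.02 to -1.73) for PPBP, -2.34 (-2.55 to -2.12) for S100A9 and -1.99 (-2.30 to -1.70) for SERPINB2. S100A8 and S100A9 lie 2 places apart in the RefSeq gene order and were the only pair within 10 genes of each other among the 37 members that could be placed in that order. S100A9 is also the member for which the study's supplement gives qRT-PCR primers, shown here as its assay sequence in 5′ to 3′ direction. The paper ran this assay on RNA of the same groups. It reports S100A9 as increased in CM and decreased in CMT, as in its RNA-Seq data.

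S100A9 forward primer: caaatgtcgcagatggaatg

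S100A9 reverse primer: ggatgtggtttatggctttctc

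Relatives and cell type markers of these genes were followed too. The family counts include the members S100A8, S100A9 and SERPINB2, whose calls against IM the rule fixed. Of the 9 measured S100 genes, a list added after the values were seen, 3 exceeded IM by 1.5-fold or more in CM and 1 was lower. In CMT 4 did so and 0 were lower. These 4 were S100A8, S100A9, S100A12 and S100Z, the last with only 1, 1 and 4 reads in IM, CM and CMT. S100A12, the third alarmin of this kind, was 323, 2449 and 537 UQRPKM and missed the rule in CMT. S100A11 went the other way in CM, with 1764, 598 and 1689 UQRPKM. Of 7 measured clade B serpins, 5 were higher in CM than in IM and 0 were lower, while 2 were higher and 1 was lower in CMT. SERPINB11 was 4.32, 29.7 and 13.2 UQRPKM, and SERPINB7 was 4.46, 14.4 and 1.75 UQRPKM.

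Markers of the blood cells that carry S100A8, S100A9 and PPBP were read beside them. The sum over 7 neutrophil markers was 26.3, 12.6 and 19.5 UQRPKM in IM, CM and CMT, and MPO and ELANE were each below 1 UQRPKM. The largest part of the sum was MMP9, with 16.9, 5.81 and 12.5 UQRPKM, whereas CXCR2 changed little, with 5.08, 4.69 and 4.35 UQRPKM. CSF3R was listed at 0 in all libraries, as was HPRT1, a gene used by every cell, so a listing at 0 can be a gene that was not counted. The sum over 5 platelet markers was 91.2, 126 and 114 UQRPKM, nearly all from SELP and ITGA2B, which other cells also express. PF4, another platelet chemokine, had 0, 1 and 0 reads. These lists were added after the values were seen. The beta-globin gene HBB of red cells was 4534, 4193 and 2331 UQRPKM. In 13 measured macrophage markers, 3 were at least 1.5-fold higher and 0 lower in CM than in IM, and 0 were higher and 2 lower in CMT. The 3 were EMR1 with 45.6, 93.6 and 30.6 UQRPKM, MARCO with 16.8, 37.9 and 10.7, and LYZ with 41.4, 97.5 and 26.6. MARCO and LYZ were also the 2 lower in CMT. CD68 was not measured under that name. The paper gives it as LOC100520753 and reports it as increased in CM and decreased in CMT.

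Metabolic members ranged from one of the most abundant transcripts of the group to rare ones. FABP3, the heart-type fatty acid-binding protein, had 1917, 8926 and 9268 UQRPKM in IM, CM and CMT. It was 4.66-fold and 4.83-fold higher than in IM, and CMT and CM differed by a log2 ratio of 0.05 (-0.03 to 0.14). FABP3 is abundant in muscle, and the 13 muscle markers summed to 85.8, 74.7 and 6205 UQRPKM in the same libraries. Their part in its level was not tested. LOC100523701, which carries the RefSeq symbol AOX1 for aldehyde oxidase, was 185, 509 and 479 UQRPKM from 1578, 4143 and 4011 reads.

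Other members of metabolism had fewer reads. GNMT, the glycine N-methyltransferase that uses S-adenosylmethionine and is abundant in liver, was 11.8, 44.0 and 31.4 UQRPKM, beside the liver marker sums of 2562, 9816 and 1739, whose part in it was not tested. APRT, which recycles adenine to AMP, was 13.6, 45.1 and 86.7 UQRPKM. The remaining 5 measured purine salvage genes were not at least 1.5-fold higher in either castrated library. RFESD, a protein with a Rieske iron-sulfur domain, was 24.0, 51.2 and 49.8 UQRPKM.

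A pair of proton-transporting enzyme subunits belonged to the members. ATP6V0A4, a membrane subunit of the vacuolar ATPase known from the kidney, was 9.28, 59.3 and 84.1 UQRPKM. ATP5J, coupling factor 6 of mitochondrial ATP synthase, was 73.7, 148 and 317 UQRPKM. Lists of the subunits of their complexes were read beside them. The counts include ATP6V0A4 and ATP5J, whose calls against IM the rule fixed. Of 14 measured V-ATPase genes 3 were at least 1.5-fold higher and 0 lower in each comparison with IM, with medians of 0.03 and -0.04 on the log2 scale. Of 13 measured ATP synthase genes 3 were higher in CM and 1, ATP5J itself, in CMT, with medians of 0.08 and 0.01. ATP5G2 was 381, 1627 and 409 UQRPKM, that is, higher in CM but not in CMT.

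Members of transcription and ribosome formation came next. KLF5, a zinc finger factor with a part in adipocyte differentiation, was 6.59, 30.6 and 34.6 UQRPKM, from 7, 31 and 36 reads. NOL11, a nucleolar factor of pre-ribosomal RNA processing, was 15.9, 47.7 and 48.0 UQRPKM. PA2G4, a growth regulator that binds ribosomes, was 93.8, 199.8 and 507 UQRPKM. ZSCAN4, a zinc finger protein, was 17.5, 38.0 and 38.3 UQRPKM. NOL11 and ZSCAN4 had nearly equal values in CM and CMT, whereas PA2G4 was 2.54-fold higher in CMT than in CM (interval 2.21 to 2.92). That ratio is of the member model alone. A second model of PA2G4, LOC100737962, held more reads and was 479, 495 and 509 UQRPKM.

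The families around these members were read in the same way. Their counts include KLF5, NOL11 and PA2G4, whose calls against IM the rule fixed. Of 12 measured KLF genes, 3 exceeded IM by 1.5-fold or more in CM and 1 was lower, and 3 were higher and 2 lower in CMT, against 7.94% and 10.1% of all measured genes in CM and 8.42% and 11.6% in CMT. KLF2 and KLF4, more abundant than KLF5, were highest in IM, at 1747 and 416 UQRPKM. Of 28 measured nucleolar and ribosome assembly genes, 3 were higher and 0 lower in CM, and 3 were higher and 1 lower in CMT, with medians of 0.07 and 0.02. These shares are near those of all measured genes, 7.94% higher in CM and 8.42% in CMT. The third gene higher in CM was UTP15, with 15.9, 27.9 and 25.8 UQRPKM.

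The ribosomal protein RPL31 was the most abundant member, with 5087, 11691 and 11764 UQRPKM from 3979, 8716 and 9017 reads. LOC100514795, which carries the RefSeq symbol RPL23A, another protein of the large ribosomal subunit, was 2900.0, 6548 and 8397 UQRPKM. Among the 60 measured genes with a ribosomal protein symbol RPL31 was the only member. Their median log2 ratios were 0.10 for CM and 0.23 for CMT versus IM. Ribosomal protein genes have many near-identical pseudogene copies, and how reads that fit several copies were counted is not given in the sources used here, so these values are uncertain.

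A few members code for receptors, signalling proteins and secreted proteins. PTGDR, a receptor of prostaglandin D2, was 7.0, 29.4 and 22.0 UQRPKM. GNG8, a G protein gamma subunit, was 2.98, 22.9 and 20.3 UQRPKM from 3, 22 and 20 reads. SKAP2, an adaptor of Src family kinases in leukocytes, was 20.6, 51.1 and 47.5 UQRPKM. All of them were somewhat lower in CMT than in CM, with intervals of that ratio that include 1. CTHRC1, a secreted collagen triple helix repeat protein of activated fibroblasts, was 28.0, 68.7 and 70.5 UQRPKM. Among 12 measured progenitor and fibroblast genes, CTHRC1 was the 1 gene at least 1.5-fold higher in CM, and 2 were lower. In CMT 3 were higher, among them CTHRC1, and 1 was lower. CLCA1, a secreted regulator of chloride channels, was 10.03, 26.6 and 23.0 UQRPKM.

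The remaining named members are given to account for all of them, and were chosen after their values were seen. ATG5, needed for autophagosome growth, was 9.21, 31.1 and 23.0 UQRPKM, and TMEM41B, a lipid scramblase of the endoplasmic reticulum, was 16.4, 35.7 and 34.7 UQRPKM. UFSP2, a protease that processes the ubiquitin-like UFM1, was 16.1, 32.2 and 34.0 UQRPKM. HBQ1, theta globin, had 7, 17 and 25 reads. CCDC97 was 8.29, 25.3 and 22.3 UQRPKM, and TATDN1 was 14.03, 32.3 and 29.2 UQRPKM. Their ratios to IM lay between 2.001-fold for UFSP2 in CM and 3.64-fold for HBQ1 in CMT.

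The rule sets CM and CMT against IM but not against each other, so CMT versus CM was compared separately. Of the 57 members, 41 (71.9%) differed by less than 1.5-fold between CMT and CM, 9 (15.8%) were at least 1.5-fold higher in CMT and 7 (12.3%) were at least 1.5-fold lower. Over all 9881 genes these shares were 91.8%, 3.61% and 4.57%. The median log2 ratio was 0.01 for the members and -0.02 for all genes, and the members ran from -2.94 for LOC100625231 to 1.58 for KRT8. By counting intervals the members were closer to all genes. The interval lay above 1 for 12 members (21.1%, against 19% of all genes) and below 1 for 11 (19.3%, against 24.8%), and it included 1 for 34. The members' fewer reads make such intervals wider.

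The 9 members higher in CMT were KRT8, PA2G4, LOC102161979, ATP5J, APRT, UPK1B, UPK3B, LOC100512831 and LOC100739335. KRT8 was 3.0-fold higher (2.63 to 3.42), LOC102161979 2.25-fold (1.22 to 4.33), ATP5J 2.14-fold (1.66 to 2.76) and APRT 1.92-fold (1.46 to 2.55). The 7 members lower in CMT were LOC100625231, S100A8, PPBP, S100A9, SERPINB2, LOC100737894 and CFB. For these the working description of the group as not lowered by testosterone does not hold between these libraries, although all stayed at least 2 times IM in CMT. FABP3, C3, RPL31, NOL11, ZSCAN4 and LOC102157556 were among the members with almost equal values in CM and CMT.

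**Figure D4:**
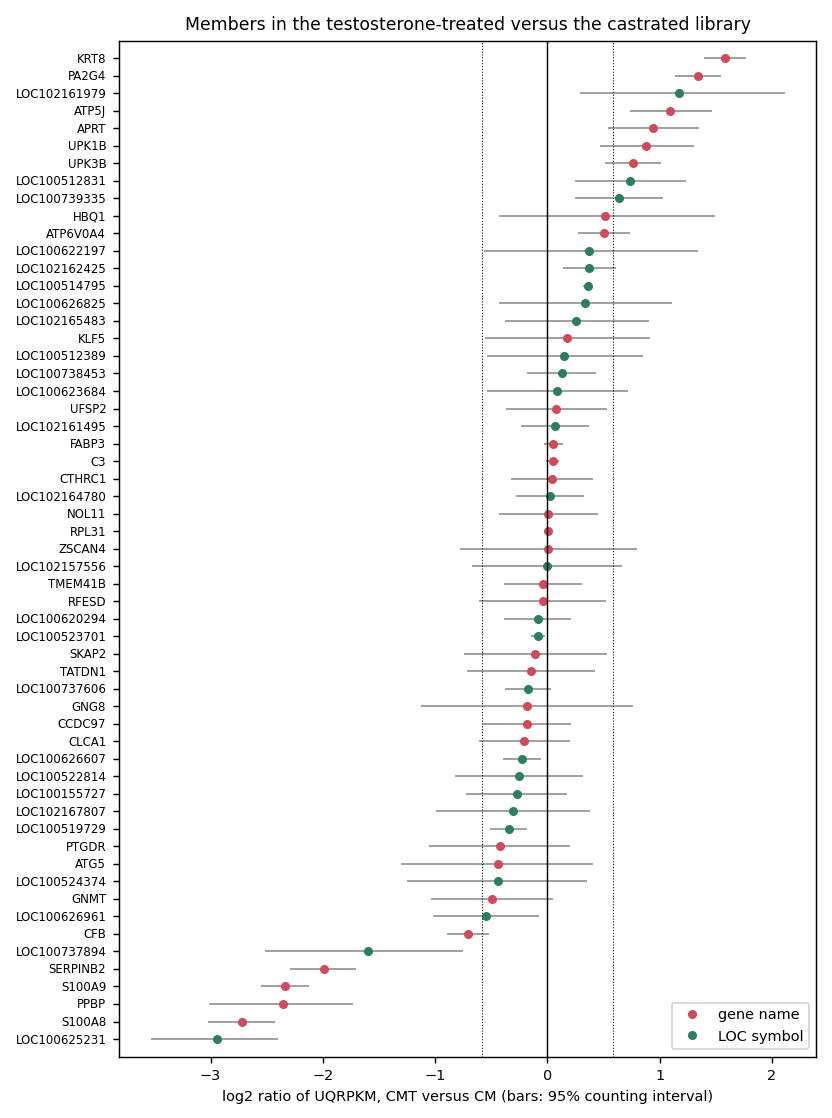
Log2 ratio of CMT to CM for the 57 members, sorted, with 95% counting intervals as bars, a solid line at 0 and dotted lines at 1.5-fold in each direction. Most members lie between the dotted lines, KRT8 at 1.58 and PA2G4 at 1.34 are at the upper end, and LOC100625231 at -2.94 and S100A8 at -2.72 are at the lower end.

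A feature that the rule did not use was the kind of gene symbol. A LOC symbol, given to a gene model without an approved name, was carried by 26 members (45.6%), against 1870 (18.9%) of the 9881 genes. The share was as high in the groups low in another library, at 35 (59.3%) of the genes low only in CM and 30 (42.9%) of those low only in CMT. The LOC members had median log2 ratios of 1.48 and 1.65 in CM and CMT versus IM, and the 31 named members had 1.73 and 1.65. Recovered gene length, which can be too short by a whole factor, had a median of 903 bases for the members and 2062 for all 9881 genes. It was 842 bases for LOC members and 1233 for named members.

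Most LOC members are annotated after a gene that the table also lists under its name. Whether such a pair is 1 gene in parts, or a gene with a paralog or pseudogene, was not tested. By RefSeq symbol or by the study's annotation, 25 of the 26 could be tied to a named gene. LOC100512389, an RPC9-like subunit of RNA polymerase III with 21.7, 56.9 and 63.3 UQRPKM, could not. The named counterpart was above 0 in the table for 18, listed at 0 for 2 and not in the table for 5. The reads of a LOC member and of its counterpart were followed in these 18 pairs.

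More of the counterparts were below IM than above it in the castrated libraries, whereas their LOC partners were above it by the rule. Of the 18 counterparts, 10 were below IM in both castrated libraries, 8 of them with both counting intervals below 1. POLR2K, IARS, MGEA5 and ARMC10, 4 of the 18, were above IM in both. At 1.5-fold, 3 were lower and 0 higher in CM, and 4 were lower and 0 higher in CMT. Over all measured genes, 10.1% were lower and 7.94% higher in CM, and 11.6% and 8.42% in CMT. The counterparts' median log2 ratios were -0.25 and -0.18, beside -0.06 and -0.08 over all measured genes. When the reads of both models were added, the median log2 ratio of the sums was 0.06 in CM and 0.08 in CMT. Of the 18 sums, 14 were within 1.5-fold of IM in CM and 13 in CMT, and 1, that of AOX1, was at least 2 times IM in both. Recovered reads can be low by a common factor, which would change the weight of a model in its sum.

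The first examples are pairs whose counterpart was lower than in IM in both castrated libraries. LOC100519729, annotated by the study as TAX1BP3, a PDZ domain protein, was 211, 857 and 675 UQRPKM, while TAX1BP3 was 677, 297 and 217 UQRPKM. The LOC share of the reads of the pair was 11.3%, 54.0% and 55.9%. LOC100626607, a model of the HSP90 co-chaperone AHSA1, was 65.9, 320 and 274 UQRPKM, and AHSA1 was 138, 99.2 and 90.1. The LOC model held 31.4%, 75.7% and 74.5% of the reads of that pair. In both pairs the LOC model went from the smaller to the larger share of the reads between IM and the castrated libraries.

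LOC100155727, an RPA12-like subunit of RNA polymerase I, was 22.1, 87.1 and 72.1 UQRPKM. Its counterpart ZNRD1 was 169, 70.7 and 105 UQRPKM, so the LOC share was 11.7%, 55.6% and 41.2%. LOC100622197, RPABC4-like and shared by the nuclear RNA polymerases, was 25.1, 67.8 and 87.9 UQRPKM, and POLR2K was 151, 183 and 222. The POLR2K pair was higher with both models. Of the 29 measured RNA polymerase genes, 3 were at least 1.5-fold higher and 1 lower in CM. In CMT 5 were higher and 1 was lower, and the medians were 0.00 in CM and 0.02 in CMT. The 3 higher in CM were the members LOC100155727, LOC100622197 and LOC100512389, whose calls against IM the rule fixed. They are also among the 5 higher in CMT. The lower gene in both comparisons was ZNRD1.

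LOC100625231, a model of dymeclin, a Golgi-associated protein, had 4, 232 and 31 reads and the largest CM to IM ratio of the members above 0 in IM, 60.9-fold. Its counterpart DYM was 303, 356 and 266 UQRPKM. LOC100523701 differed from the other pairs, since it held 97.0%, 99.3% and 99.7% of the AOX1 reads, and the gene listed as AOX1 was 7.11, 4.57 and 1.78 UQRPKM. The sum of that pair was above IM by a log2 ratio of 1.43 (1.35 to 1.51) in CM and 1.34 (1.25 to 1.42) in CMT. The sum was also at least 1.5-fold higher in both for AHSA1, with 1.01 and 0.81, and for the pair of LOC100737606 and ARMC10, an armadillo repeat protein, with 0.79 and 0.79.

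**Figure D5:**
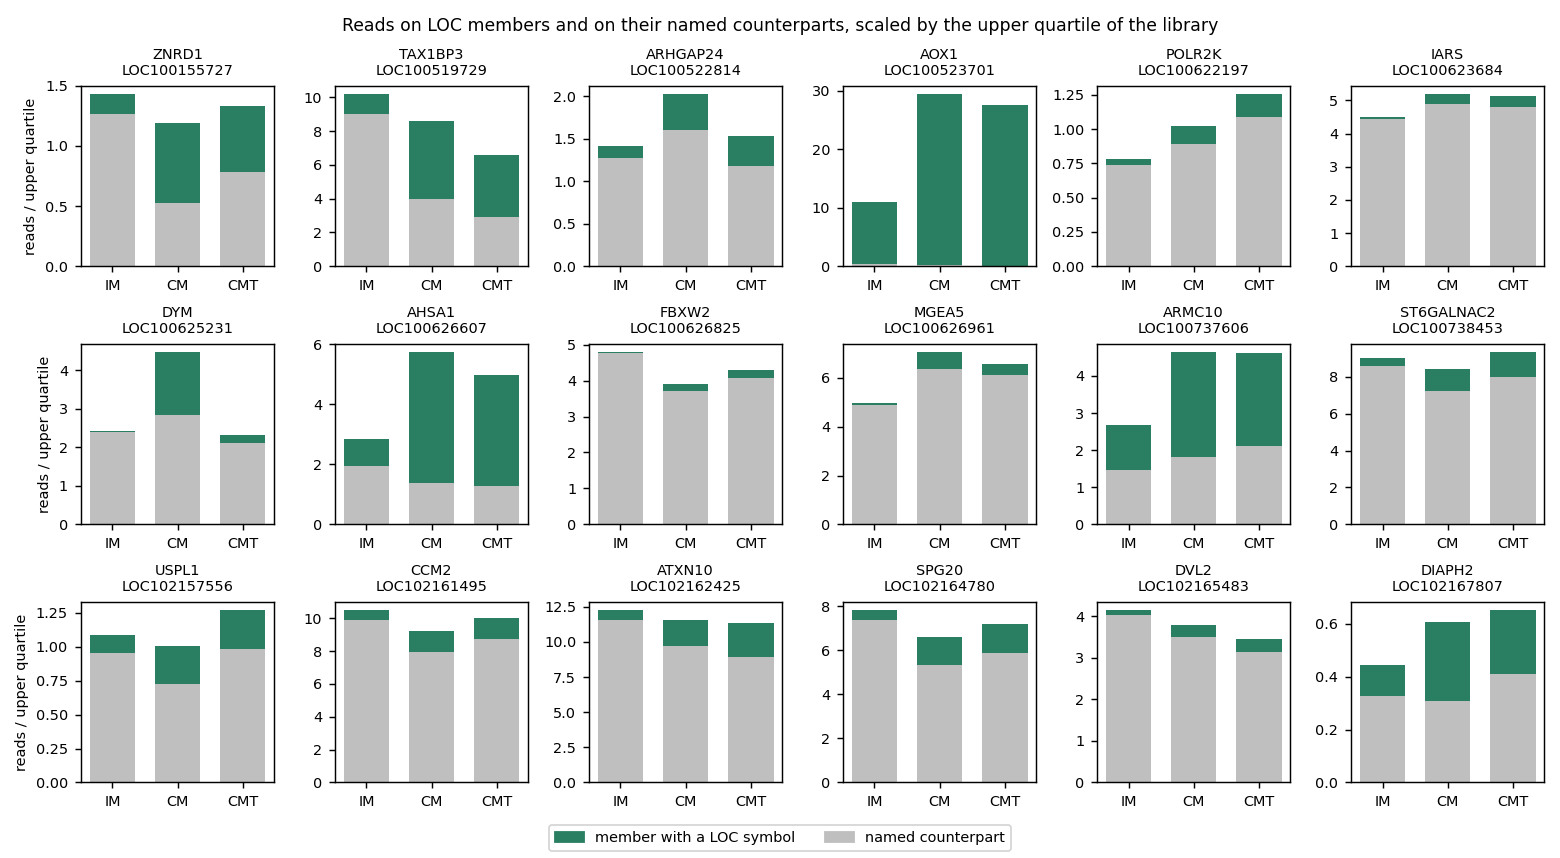
Reads, scaled by each library's upper quartile, on each of 18 LOC members (green) and stacked on those of the named counterpart (grey), in IM, CM and CMT, 1 pooled library each, with the vertical axis starting at 0 and its own scale in each panel. The green part is larger in CM and CMT in every panel, whereas the height of the whole bar is within 1.5-fold of IM in 14 panels for CM and 13 for CMT.

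The other LOC members with a counterpart held fewer reads than that counterpart in every library. LOC100626825 had 4, 27 and 35 reads beside 709, 527 and 594 on the F-box gene FBXW2. LOC100623684 had 9, 43 and 47 reads beside 660, 693 and 703 on the isoleucyl-tRNA synthetase gene IARS. LOC100626961 had 16, 95 and 67 reads beside 726, 906 and 893 on MGEA5, the enzyme that removes O-GlcNAc. In these pairs the LOC model held less than 10% of the reads in every library. LOC102162425 with ATXN10, LOC102164780 with SPG20, LOC100738453 with ST6GALNAC2, LOC102161495 with CCM2 and LOC102165483 with DVL2 held between 2.60% and 21.1%. LOC102157556 with USPL1, LOC100522814 with ARHGAP24 and LOC102167807 with DIAPH2 held between 10.4% and 48.8%.

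Of LOC members without a counterpart above 0, LOC102161979, BCS1-like after a mitochondrial chaperone, had 2, 16 and 37 reads. LOC100620294, ZFR-like after an RNA-binding zinc finger protein, was 34.8, 76.7 and 72.3 UQRPKM. LOC100512831, HTRA2, a mitochondrial serine protease, was 20.1, 43.7 and 72.8 UQRPKM. LOC100739335, annotated as RUVBL1, an ATPase of chromatin remodelling complexes, was 44.3, 109.6 and 170.4 UQRPKM. These models were highest in CMT, apart from the ZFR-like gene. LOC100737894, PPIC-like after a peptidyl-prolyl isomerase, had 7, 47 and 16 reads, and LOC100524374, ATXN7L3B, had 12, 33 and 25 reads.

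Some named members also have a second model in the table. PA2G4 had 137, 278 and 725 reads, whereas LOC100737962, which carries the RefSeq symbol PA2G4, had 1265, 1245 and 1317 reads and 479, 495 and 509 UQRPKM. CCDC97 had 41, 119 and 108 reads and its second model LOC100738128 had 66, 35 and 66. The second models of ATG5 and SKAP2 were listed at 0. How reads were divided between models of 1 gene was not tested.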

How the data were processed

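Total RNA of visceral fat was pooled per group, and Ion Proton single-end libraries were made, 1 per group. After read filtering and mapping with MapSplice to build Sscrofa 10.2, the authors deposited 1 RPKM-type value per gene (UQRPKM), scaled by the library's upper quartile. The counter, the annotation and the treatment of multi-mapping reads are not given in the sources used here. The labels give 4 to 6 pigs per pool, and the methods give the lower number.

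Values were used as deposited, and log2 ratios have no pseudocount. Whole reads were recovered from the steps of the values, with upper quartiles of 149, 142 and 146, for 100% of 20838 genes above 0 (largest relative error 7.65e-09). The shortest length that gave whole reads was taken. This step was tested on simulated data, and reads whose numbers share a common factor with the length come out low by that factor. Reads on mRNA genes were 14844063, 13582288 and 13449107 in IM, CM and CMT. Intervals are exact Clopper-Pearson intervals at 95%, computed with scipy 1.17.1 and pandas 2.3.3 in Python 3.11.15.

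A list gene was measured at 1 UQRPKM or more in all libraries and called at 1.5-fold, the study's threshold without its test. Members and lists were chosen with earlier results of these data known. Named were members in a list, the 12 with the largest smaller ratio to IM, the 8 most abundant, the 5 at each end of CMT versus CM, the 3 on each side of a threshold, members at 0 in IM, counterparts, and up to 4 abundant genes per list. Beyond this rule, further list genes and the other members were chosen after their values were seen. LOC symbols were matched by gene ID to RefSeq for Sscrofa11.1 (6 found) or to the study's supplementary annotation, since the reference held no protein sequences. Coordinates were used only to put RefSeq genes in order for the search of neighbours, and promoters and proteins are not used here.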

Additional observations from a re-analysis of the deposited data

Results flagged for a closer look

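Genes of other types were outside the comparisons above, and 28 of them also had at least 20 UQRPKM in CM and CMT and at least 2 times IM in both, which is 3.16% of the 885 tested. They were 16 of type miscRNA, 8 ncRNA, 3 tRNA and 1 miRNA, and 14 of the 28 had at least 20 reads in both castrated libraries. ND6, a mitochondrial gene classed as ncRNA, had levels of 109, 251 and 227 UQRPKM in IM, CM and CMT.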

How the results depend on the processing

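The number of members, 57, was 94 with a minimum of 10 UQRPKM, 27 with 50 and 636 with none, and it was 174 at 1.5 times IM and 22 at 3 times IM. With both lower counting limits at 2 or more it was 25. It stayed within 1.5-fold, between 45 and 85, under other scalings, a pseudocount of 1, all gene types and limits above 1. The same held for a minimum of 20 reads and, added after seeing the data, 10 reads in IM. With sums of gene models, also added after seeing the data, it fell to 40. Of the 18 paired LOC members, only 1 then kept at least 2 times IM in both castrated libraries. Second models of named members, such as that of PA2G4, were not added in. Members higher in CMT than in CM were 4 instead of 9 at 2-fold and 4 with 50 UQRPKM, and lower ones were 4 instead of 7 with 50 UQRPKM. Other scalings moved all genes by 0.02 to 0.09 on the log2 scale. All 338 ratios of named genes stayed within their intervals, and 146 of 148 list medians stayed in place.

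Summing both gene models turned 17 of 36 ratios below IM. The log2 ratios of the sums in CM and CMT were -0.26 and -0.11 for LOC100155727, -0.24 and -0.63 for LOC100519729, -0.29 and -0.15 for LOC100626825, -0.19 and -0.0633 for LOC102161495, -0.0797 and -0.11 for LOC102162425, -0.24 and -0.12 for LOC102164780, and -0.13 and -0.26 for LOC102165483. In CM alone they were -0.10 for LOC100738453 and -0.11 for LOC102157556, and in CMT alone -0.0654 for LOC100625231.

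No paired analysis was possible because each group is 1 pooled library, and for the same reason no library could be left out. With 27 reads at the median in IM, depth limits the ratios of rarer members.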
